A study of Mus musculus with 6 samples.

Results

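Phosphoinositide 3-kinase (PI3 kinase), Akt and Sgk1 were followed through mouse mammary glands at 3 stages of the mammary cycle, in Brca1 mutant and control mice. The set holds 7 genes: the catalytic subunits Pik3ca and Pik3cd, the regulatory subunit Pik3r1, the kinases Akt1, Akt2 and Sgk1, and the Akt coactivator Tcl1b3. The array measures them with 25 probe sets, each annotated to that gene alone, out of 34945 such probe sets for 18193 genes. Of the 25, 18 passed a filter on low signals. Pik3cd, Sgk1 and Tcl1b3 were chosen because of the pattern of their signals in these arrays, so their values are given as a description, without a test. Tests are given for the 14 of 17 Akt1, Akt2, Pik3ca and Pik3r1 probe sets that passed the filter.

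PI3 kinases phosphorylate a membrane lipid downstream of insulin, growth factor and cytokine receptors. The lipid recruits Akt kinases to the membrane, where they are activated and phosphorylate regulators of glucose uptake, lipid synthesis, survival and growth. Sgk1 is a related kinase activated by the same lipid signal, and its gene is a classical target of glucocorticoids and mineralocorticoids. In the mammary gland, Akt1 is known for its part in glucose uptake and lipid synthesis at the onset of milk secretion.

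Each array held the total RNA of 1 mouse's mammary gland, and the 6 mice were females on a mixed background of 129/FVB/Black Swiss. The virgin mice were 6 months old, and the mutant was Brca1 D11/D11;p53+/- and the control Brca1 D+/+;p53+/-. The pregnant mice were 5 months old and at day 16.5, and the mutant was Brca1 co/co/MMTV-Cre and the control Brca1 +/co/MMTV-Cre. The lactating mice were 2 months old and at day 1 of lactation, with the 2 genotypes of the virgin pair. Mutant and control of the virgin and lactating pairs thus all carried p53+/-, and both pregnant mice carried the MMTV-Cre transgene. MMTV-Cre deletes a conditional allele only in cells in which that viral promoter is active. The series' design text describes every mutant by the germline D11 genotype, and genotypes are given here as in the sample labels. Stage coincides with age. The pregnant stage also coincides with another Brca1 allele, the MMTV-Cre transgene and labels without p53+/-, and the lactating stage with another date in the sample titles. These cannot be told apart.

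Values are MAS5 signals, which are intensities on a linear scale, scaled to the same trimmed mean on each array. Median signals over all probe sets were 211.2 in the lactating mutant, 230.8 in its control, and between 119.9 and 157.8 at the other stages. The 20 probe sets of Y-linked genes, which should be dark in females, had a median signal of 33.6 and a 90th percentile of 184.6, and these levels serve below as a gauge of dim signals. The 3' to 5' signal ratio of a control gene is a gauge of RNA quality. For Gapdh it was 1.52 in the virgin mutant, 3.50 in the virgin control and 0.73 to 1.20 in the other 4 arrays. For actin it was 2.03 in the virgin mutant, 2.74 in the virgin control and 1.37 to 1.91 in the other 4. Both ratios were highest in the virgin arrays, so RNA quality also goes with stage. Its part in the differences from virgin glands was not tested. The brightest of 4 Brca1 probe sets read 486.5 in the virgin mutant and 137.0 in the virgin control, 288.0 in the pregnant mutant and 158.7 in the pregnant control, and 156.7 in the lactating mutant and 237.6 in the lactating control. No source used here gives the place of these probe sets relative to the deleted part of Brca1, and the signals are thus no check of the genotypes.

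Between stages the 4 tested genes did not move together. Against virgin glands, Akt1 was called higher on 3 of 3 tested probe sets in lactating glands and on 2 of 3 in pregnant glands. At both stages Pik3r1 was called higher on 2 of 4 and Akt2 on 1 of 2. Pik3ca was called lower on 1 of 5 in lactating glands. Log2 ratios are on the log2(signal + 52.1) scale, which understates the change of dim genes. Adjusted p-values come from limma over all 19461 probe sets that passed the filter. With 1 array per stage and genotype, they and the standard errors do not measure the spread between mice of the same stage and genotype. For pregnant against virgin glands, 5 of the 14 probe sets were called higher and 0 lower at an adjusted p under 0.05, beside 8.97% higher and 6.26% lower among all probe sets tested. For lactating against virgin glands, 6 were called higher and 1 lower, beside 26.9% and 25.2%. For lactating against pregnant glands, 3 were called higher and 2 lower, beside 15.2% and 16.8%, or 31.9% in either direction. Stages separated without overlap on several probe sets. Both lactating arrays lay above the other 4 on 5 of the 14 and below them on 3, beside 28.2% and 27.9% of all probe sets. Both virgin arrays lay above the rest on 3 and below on 6, beside 23.3% and 23.9%, and both pregnant arrays above on 3 and below on 2, beside 9.96% and 7.75%. The median log2 ratio of the 14 was 0.30, 0.13 and 0.10 in these 3 comparisons, beside 0.03, 0.01 and -0.02 over all probe sets. In glands, fewer cells of a type and less RNA per cell cannot be told apart.

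**Figure D1:**
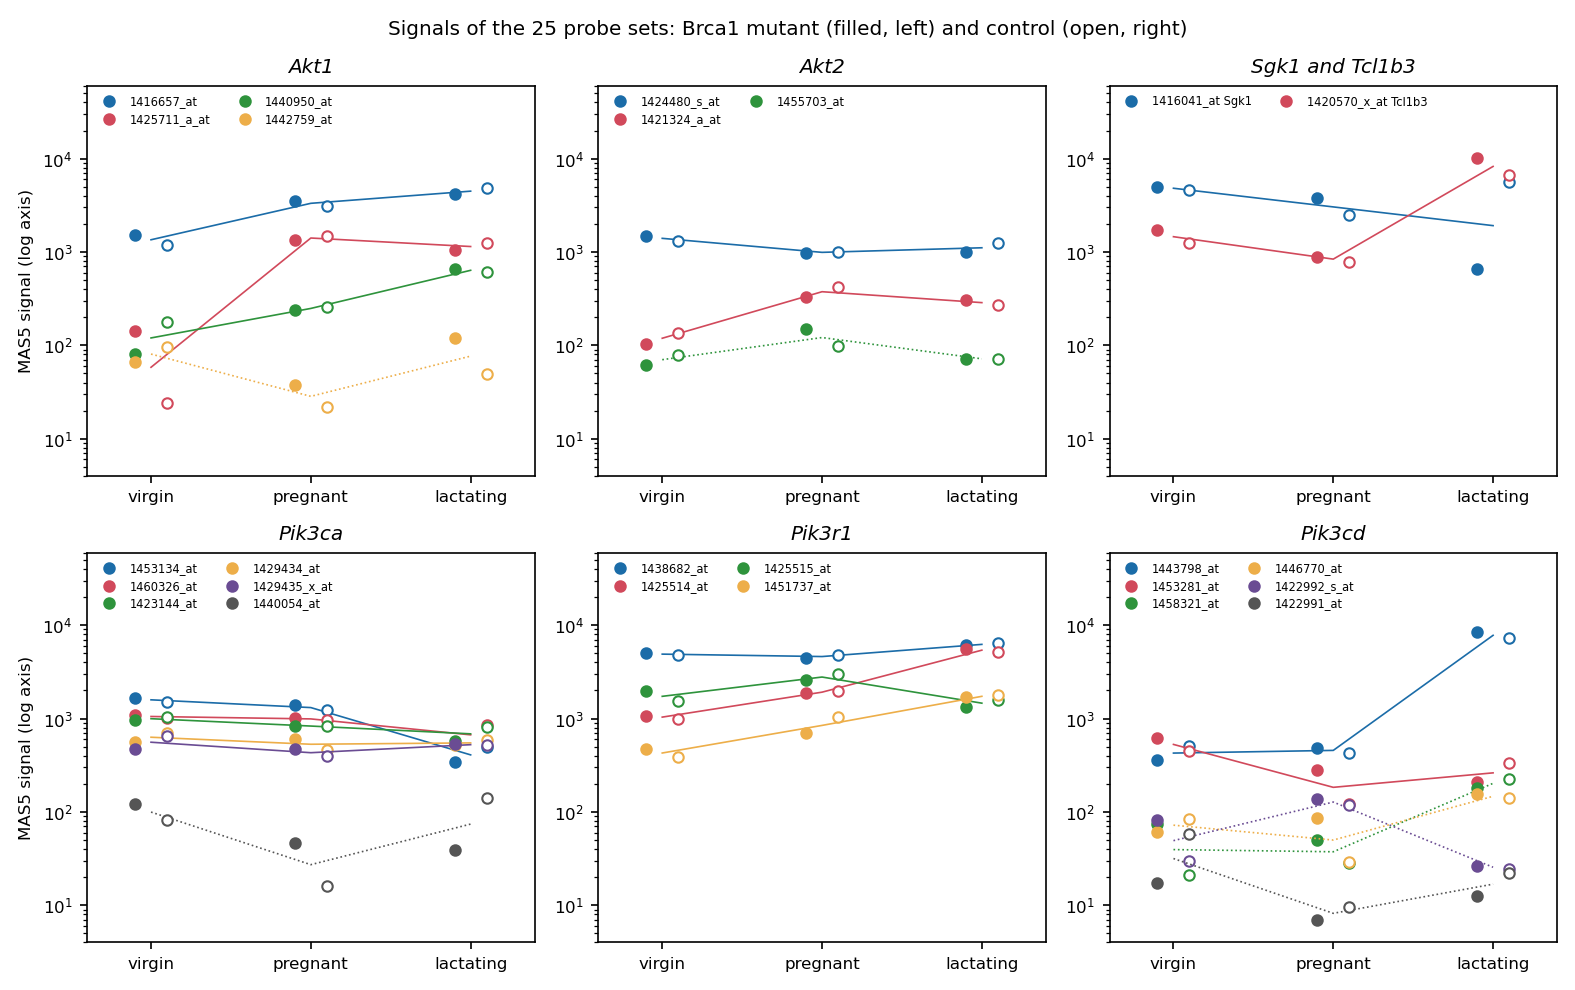
MAS5 signals (vertical log axis) of all 25 probe sets at the virgin, pregnant and lactating stages, with the Brca1 mutant as a filled point on the left and the control as an open point on the right. Lines join the geometric mean of each pair and are dotted for the 7 probe sets under the low-signal filter. Pik3cd 1443798_at and Tcl1b3 reach their highest signals in the lactating pair, and the lactating mutant stands at 661.2 for Sgk1, below the other 5 arrays.

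Marker sums of several cell types also differed between stages. The luminal list includes the milk protein genes Csn2, Csn3, Wap and Lalba, so its sum need not follow cell number. The summed signal of 10 luminal epithelial markers was 113106 in the virgin mutant and 95436 in the virgin control, 159072 and 219491 in the pregnant mutant and control, and 281752 and 231090 in the lactating mutant and its control. The summed signal of 8 adipocyte markers was 125153 and 123669 in the virgin mutant and control, 78689 and 92648 in the pregnant mutant and control, and 48321 and 51972 in the lactating mutant and its control. Leukocyte markers (16 genes) stood at 53942 and 49900 in the virgin mutant and control, 21534 and 20494 in the pregnant mutant and control, and 6364 and 6787 in the lactating mutant and its control. Luminal markers were thus highest in lactating glands, and fat and leukocyte markers highest in virgin glands. Basal epithelial markers (7 genes) read 6850 and 5899 in the virgin mutant and control, 7575 and 8724 in the pregnant mutant and control, and 9715 and 6748 in the lactating mutant and its control, and the stages overlapped. Fibroblast markers (7 genes) ranged from 18260 to 113579 over the mutants and from 12390 to 113451 over the controls, lowest in the lactating glands. No marker of any list was at 0 in all arrays. In lactating against virgin glands, limma called 4 of 10 luminal markers higher and 0 lower, 0 of 8 adipocyte markers higher and 6 lower, 1 of 16 leukocyte markers higher and 15 lower, and 0 of 7 fibroblast markers higher and 7 lower, beside 26.9% higher and 25.2% lower among all probe sets. Of the 6 basal epithelial markers that passed the filter, 1 was called higher and 1 lower. Of 10 skeletal muscle markers 8 were called higher and 0 lower, and of 8 endothelial markers 0 higher and 6 lower. In pregnant against virgin glands all 10 muscle markers were called higher, beside 8.97% of all probe sets. The part of these shifts in the stage differences of the PI3 kinase, Akt and Sgk1 genes was not tested.

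Pik3ca encodes p110 alpha, the catalytic subunit that serves insulin and growth factor receptors in most tissues. It lies at chr3:32397065-32466112 (all positions GRCm38.p6, from RefSeq). Its probe set with the highest mean, 1453134_at, read 1670.1 and 1506.3 in the virgin mutant and control, 1393.6 and 1231.1 in the pregnant mutant and control, and 338.8 and 491.3 in the lactating mutant and its control. Both lactating arrays lay below the other 4. The log2 ratio was -1.83 ± 0.24 (SE, 2 arrays per stage; limma adjusted p = 0.000741) for lactating against virgin glands and -1.56 ± 0.24 (limma adjusted p = 0.0043) for lactating against pregnant glands, and -0.27 ± 0.24 (limma adjusted p = 0.489) for pregnant against virgin glands. Without the pregnant mutant array the second of these was -1.39, with an adjusted p of 0.0514.

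The other tested Pik3ca probe sets were flatter. Probe set 1460326_at read 1102.2 and 1003.3 in the virgin mutant and control, 1010.0 and 971.5 in the pregnant mutant and control, and 529.8 and 843.5 in the lactating mutant and its control. Probe set 1423144_at ranged from 574.2 to 1039.7. Both had their lowest value in the lactating mutant, and their log2 ratios for lactating against virgin glands were -0.61 ± 0.25 and -0.51 ± 0.22 (limma adjusted p = 0.0723 and 0.0897). Probe sets 1429434_at and 1429435_x_at, the second of a class prone to cross-hybridisation, ranged over 464.3 to 706.4 and 394.7 to 654.2. Their ratios for lactating against virgin glands were -0.19 ± 0.25 and -0.08 ± 0.25 and were not called. These 2 were designed on the same GenBank entry as 1453134_at, yet their Pearson correlation with it over the 6 arrays was 0.32 and -0.13. The sixth probe set, 1440054_at, stayed between 16.0 and 141.3 and was not tested. Centring each array on its median log2 value called 1460326_at, 1423144_at and 1429434_at lower as well in lactating against virgin glands, at -1.20, -1.09 and -0.77. It also called the first 2 lower in lactating against pregnant glands, at -0.94 and -0.67. Over all 19461 probe sets, centring gave 8777 lower calls in the first comparison, from 4895, and 6474 in the second, from 3265. Without the lactating control, 1460326_at was called lower in both comparisons, at -0.97 and -0.89.

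Pik3cd encodes p110 delta, the catalytic subunit best known from leukocytes, at chr4:149649168-149702566. It was picked for the contrast on its brightest probe set, 1443798_at. That probe set read 355.3 and 511.9 in the virgin mutant and control, 487.1 and 426.3 in the pregnant mutant and control, and 8380.0 and 7227.2 in the lactating mutant and its control. The mean signal of the lactating arrays was 17.1 times that of the pregnant arrays, and the log2 ratio was 4.03 ± 0.24 (SE) against virgin and 3.95 ± 0.24 against pregnant glands. Virgin and pregnant arrays overlapped.

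No other Pik3cd probe set exceeded 625.4 on any array. Probe set 1453281_at read 625.4 and 445.7 in the virgin mutant and control, 278.7 and 120.5 in the pregnant mutant and control, and 206.6 and 331.9 in the lactating mutant and its control. Its log2 ratio of lactating over virgin glands was -0.88 ± 0.37 (SE), opposite in sign to that of 1443798_at. The remaining 4 were dim and were not tested. Probe sets 1458321_at and 1446770_at were highest in lactating glands, at 181.8 and 154.6 in the mutant and 225.0 and 139.8 in the control. The 2 probe sets designed on the RefSeq Pik3cd mRNA, 1422992_s_at and 1422991_at, ranged over 24.7 to 137.6 and 7.0 to 57.9, within the 90th percentile of Y-linked probe sets. Neither RefSeq-based probe set was highest in lactating glands. The 5 genes whose pattern over the 6 arrays was most like that of 1443798_at by Pearson's r were Adpgk (0.998), Fbxw22 (0.997), Zfyve9 (0.997), Zmym4 (0.997) and Elavl2 (0.996). All points of these correlations share the same 6 arrays, and the lactating pair stands apart in each. The signal of Elavl2 was 576.5 and 615.3 in the lactating mutant and its control and 70.3 to 107.0 in the other 4 arrays.

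Pik3r1 encodes p85 alpha and its shorter variants, the regulatory subunits that hold and restrain the catalytic subunits until a receptor is activated. It lies at chr13:101680761-101768217. Its brightest probe set, 1438682_at, was the flattest of the 18 tested, with 4976.8 and 4812.8 in the virgin mutant and control, 4456.4 and 4770.0 in the pregnant mutant and control, and 6055.3 and 6398.9 in the lactating mutant and its control. It was not called between any stages, with a log2 ratio of 0.34 ± 0.18 (SE; limma adjusted p = 0.152) for lactating against virgin glands. That ratio was 0.59 (adjusted p 0.029) after quantile normalization and -0.24 after median centring. Quantile normalization also called 1438682_at higher in lactating than in pregnant glands, at 0.66 (adjusted p 0.0279).

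The other 3 Pik3r1 probe sets share 1 GenBank entry and split into 2 patterns. Probe set 1425514_at read 1071.3 and 1000.5 in the virgin mutant and control, 1862.4 and 1970.2 in the pregnant mutant and control, and 5618.9 and 5183.3 in the lactating mutant and its control. Probe set 1451737_at read 473.8 and 385.2 in the virgin mutant and control, 693.4 and 1026.9 in the pregnant mutant and control, and 1690.5 and 1768.2 in the lactating mutant and its control. Both rose at each stage without overlap, and they correlated with r = 0.97 over the 6 arrays. Probe set 1425515_at was instead highest in pregnant glands, with 1959.8 and 1524.8 in the virgin mutant and control, 2597.1 and 2979.3 in the pregnant mutant and control, and 1341.0 and 1590.9 in the lactating mutant and its control. Its correlation with the other 2 was -0.37 and -0.20.

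In lactating against virgin glands, the log2 ratio was 2.33 ± 0.19 (SE; limma adjusted p = 0.000144) for Pik3r1 1425514_at, 1.89 ± 0.25 (limma adjusted p = 0.000745) for 1451737_at and -0.24 ± 0.22 (limma adjusted p = 0.401) for 1425515_at. In lactating against pregnant glands the first 2 were again higher, by 1.47 ± 0.19 (limma adjusted p = 0.00288) and 0.99 ± 0.25 (limma adjusted p = 0.0212), and 1425515_at was lower, at -0.91 ± 0.22 (limma adjusted p = 0.0197). In pregnant against virgin glands 1425514_at and 1451737_at were higher by 0.86 ± 0.19 (limma adjusted p = 0.0244) and 0.90 ± 0.25 (limma adjusted p = 0.0471), and 1425515_at stood at 0.67 ± 0.22 (limma adjusted p = 0.0815).

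Several of these Pik3r1 calls changed with the processing. Median centring called 1425515_at lower in lactating than in virgin glands, at -0.82 (adjusted p 0.0168), and leaving out either or both lactating arrays called it higher in pregnant than in virgin glands (adjusted p 0.0451 to 0.0455). The pregnant against virgin call of 1425514_at was lost under median centring (0.68, adjusted p 0.0829) and without any 1 of the 4 arrays of these stages (0.0805 to 0.24). That of 1451737_at was lost without either pregnant array or the virgin control (0.0754 to 0.421). It was also lost under quantile normalization, median centring, the pseudocount of 14.9, no low-signal filter and no variance trend (0.0504 to 0.0921).

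Against pregnant glands, the lactating call of Pik3r1 1425515_at was lost without either pregnant array or the lactating mutant (adjusted p 0.0691 to 0.16). That of 1451737_at was lost under median centring, at 0.58 (adjusted p 0.107), and without the pregnant mutant or either lactating array (0.0515 to 0.216).

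Akt1 encodes the most widely expressed Akt kinase, at chr12:112653821-112674884. Its probe set on the RefSeq mRNA, 1416657_at, read 1532.2 and 1194.7 in the virgin mutant and control, 3522.3 and 3137.4 in the pregnant mutant and control, and 4150.6 and 4848.9 in the lactating mutant and its control. The 3 stages did not overlap. Probe set 1425711_a_at, of a class that reads several transcripts of 1 gene, gave 141.0 and 24.1 in the virgin mutant and control, 1354.7 and 1472.8 in the pregnant mutant and control, and 1052.4 and 1246.3 in the lactating mutant and its control. Its virgin signals lay within the 90th percentile of Y-linked probe sets, so the size of its rise depends on the pseudocount. Probe set 1440950_at read 80.6 and 179.2 in the virgin mutant and control, 239.1 and 258.9 in the pregnant mutant and control, and 662.5 and 612.4 in the lactating mutant and its control. The virgin signals of 1440950_at also lay within that percentile, so the same limit holds for its rise. The remaining Akt1 probe set, 1442759_at, ranged from 21.7 to 119.6 and was not tested.

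All 3 tested Akt1 probe sets were called higher in lactating than in virgin glands. Their log2 ratios were 1.69 ± 0.21 (SE; limma adjusted p = 0.00064) for 1416657_at, 3.30 ± 0.38 (limma adjusted p = 0.000445) for 1425711_a_at and 1.98 ± 0.30 (limma adjusted p = 0.00139) for 1440950_at. Pregnant glands were higher than virgin glands by 1.26 ± 0.21 (limma adjusted p = 0.00938) and 3.59 ± 0.38 (limma adjusted p = 0.00222) on the first 2, and 1440950_at stood at 0.78 ± 0.30 (limma adjusted p = 0.121). Between lactating and pregnant glands only 1440950_at was called among the Akt1 probe sets, at 1.20 ± 0.30 (limma adjusted p = 0.0217). The pregnant against virgin call of 1416657_at was lost without either pregnant array or the virgin control, with ratios of 1.08 to 1.32 and adjusted p-values of 0.0715 to 0.0862. The lactating against pregnant call of 1440950_at was lost under median centring, at 0.78 (adjusted p 0.0809), and without either pregnant array or the lactating mutant, with ratios of 0.92 to 1.32 and adjusted p-values of 0.0964 to 0.155.

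Akt2 encodes the Akt kinase best known for insulin-stimulated glucose uptake in fat and muscle, at chr7:27591552-27640826. Its 2 tested probe sets ran opposite ways, with r = -0.92 over the 6 arrays. The brighter, 1424480_s_at, of a class that can share probes with other genes, read 1495.1 and 1313.2 in the virgin mutant and control, 974.4 and 1009.6 in the pregnant mutant and control, and 998.2 and 1235.5 in the lactating mutant and its control. Probe set 1421324_a_at, on the RefSeq mRNA, read 104.5 and 136.1 in the virgin mutant and control, 331.9 and 425.4 in the pregnant mutant and control, and 305.0 and 270.2 in the lactating mutant and its control. Virgin glands were thus highest on the first and lowest on the second. The virgin signals of the second lay within the 90th percentile of Y-linked probe sets, so the size of its rise depends on the pseudocount. The third probe set, 1455703_at, stayed at 62.4 to 149.8 and was not tested.

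For Akt2 1421324_a_at the log2 ratio was 1.32 ± 0.28 (SE; limma adjusted p = 0.0195) in pregnant against virgin glands and 0.98 ± 0.28 (limma adjusted p = 0.0189) in lactating against virgin glands. For 1424480_s_at the same ratios were -0.48 ± 0.22 (limma adjusted p = 0.173) and -0.32 ± 0.22 (limma adjusted p = 0.241), and median centring called the second of these, at -0.91 (adjusted p 0.0087). The pregnant against virgin call of 1421324_a_at was lost after quantile normalization (adjusted p 0.0555) and without any 1 of the 4 arrays of these stages (0.0772 to 0.228). The lactating against virgin call was lost under quantile normalization (0.43, adjusted p 0.237) and median centring (0.39, adjusted p 0.269), and without either virgin array, the lactating mutant or the pregnant pair (adjusted p 0.0527 to 0.098). Skeletal muscle markers were likewise lowest in virgin glands. Their summed signal over 10 genes was 13466 and 38261 in the virgin mutant and control, 161945 and 145803 in the pregnant mutant and control, and 71558 and 75247 in the lactating mutant and its control, and no marker was at 0. limma called all 10 higher in pregnant than in virgin glands, beside 8.97% of all probe sets. In lactating against virgin glands it called 8 higher and 0 lower, beside 26.9% and 25.2%, with a median log2 ratio of 1.82. It called 7 lower in lactating than in pregnant glands, beside 16.8%, with a median log2 ratio of -1.26. Between lactating and pregnant glands 1421324_a_at stood at -0.34 ± 0.28 (SE, limma adjusted p = 0.378). The part of the muscle markers in the Akt2 result was not tested. Mylk2, a myosin light chain kinase of skeletal muscle, was among the 3 genes most like 1421324_a_at (r = 0.986, n = 6 arrays), after Paip2b (0.992) and Ss18l2 (0.988).

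**Figure D2:**
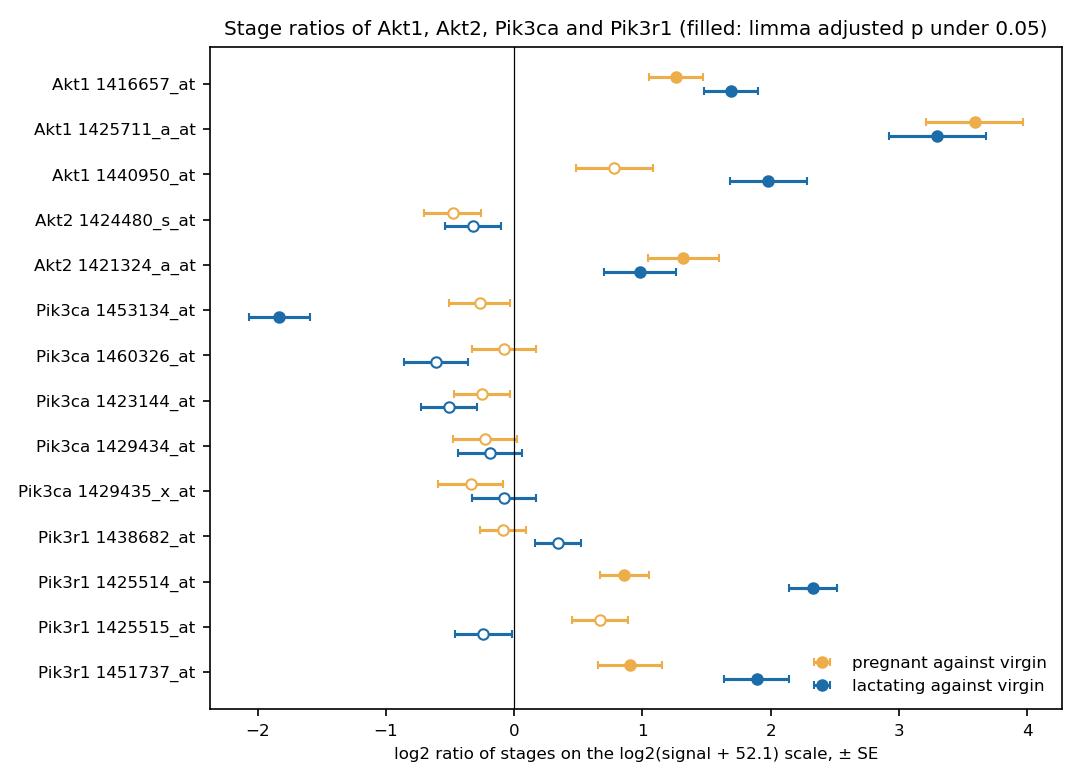
Log2 ratios between stages (horizontal axis, ± SE from the limma fit, 2 arrays per stage) of the 14 tested probe sets of Akt1, Akt2, Pik3ca and Pik3r1, for pregnant against virgin and lactating against virgin glands. Filled points have an adjusted p under 0.05: the Akt1 probe sets lie to the right of 0, and Pik3ca 1453134_at lies at -1.83 in lactating glands.

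Tcl1b3 belongs to a cluster of mouse genes related to human TCL1, whose protein binds Akt and raises its activity, and in mice the cluster is known from oocytes and early embryos. It lies at chr12:105191045-105195399. Its single probe set, 1420570_x_at, of a class prone to cross-hybridisation, read 1712.4 and 1243.7 in the virgin mutant and control, 895.2 and 787.2 in the pregnant mutant and control, and 10225.1 and 6663.9 in the lactating mutant and its control. The mutant was above the control in all 3 pairs, with log2 ratios of 0.45, 0.17 and 0.61. These ratios are 1.14 to 1.53 on the linear scale, against stage differences of 1.76 to 10 between the means of the pairs. The log2 ratio was 2.46 ± 0.21 (SE) for lactating over virgin glands and -0.76 ± 0.21 for pregnant over virgin glands. The probe sets of its close relatives were much dimmer, though signals of different probe sets do not compare expression levels. Tcl1b1 read 390.0 and 423.6 in the lactating mutant and its control and 147.7 to 302.4 in the other 4 arrays, and Tcl1b4 read 216.7 and 197.0 in the lactating mutant and its control and was under the low-signal filter. Tcl1b3 was most like Gm9946 (r = 0.998), Ppard (0.996), Srsf2 (0.995), Dazap1 (0.994) and Scnn1b (0.992) over the 6 arrays.

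Sgk1 lies at chr10:21882184-21999903 and was picked because 1 array stands apart. Its single probe set, 1416041_at, designed on the RefSeq mRNA, read 4972.3 and 4671.1 in the virgin mutant and control, 3749.0 and 2468.7 in the pregnant mutant and control, and 661.2 and 5558.0 in the lactating mutant and its control. The lactating control had the highest and the lactating mutant the lowest signal of the 6 arrays, 8.41-fold apart. The log2 ratio of mutant over control was 0.09 for the virgin mice, 0.59 for the pregnant mice and -2.98 for the lactating mice. With 1 mouse of each genotype per stage, the difference has no replicate check. The average over the 3 pairs was -0.76 ± 0.58 (SE). Without the lactating mutant, or the lactating control, it was 0.34, since the pair then drops out.

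The Sgk1 gene has 6 annotated start sites, and 1 of their upstream windows holds a palindromic glucocorticoid receptor element, shown here because that hormone pathway is a known regulator of Sgk1. The window of 250 bases lies on the + strand at chr10:21993640-21993889 (RefSeq, GRCm38.p6), and capitals mark the match to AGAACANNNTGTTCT, which begins 189 bases before that start site and at base 21993701.

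Sgk1: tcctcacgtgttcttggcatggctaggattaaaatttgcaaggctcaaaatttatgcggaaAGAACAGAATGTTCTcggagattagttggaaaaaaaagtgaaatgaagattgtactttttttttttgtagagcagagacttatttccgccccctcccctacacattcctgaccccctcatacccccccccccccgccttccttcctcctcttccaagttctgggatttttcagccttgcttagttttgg

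That element was searched on both strands in the 250 bases upstream of 32851 annotated starts, chromosome 18 excepted, and occurs in 3 of them (0.00913%), of which 1 is this one among 19 windows of the 7 genes. A 9-letter Stat element, TTCNNNGAA, occurs in 7.02% of windows and in 1 window each of Akt2, Sgk1 and Tcl1b3. A Foxo element, GTAAACA, occurs in 3.17% of windows and in 1 window of Akt1. A match describes the letters only.

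Other genes that respond to glucocorticoids were read beside Sgk1, from a list of 16 tested genes without Sgk1. In the lactating pair 6 of the 16 were at least 2-fold lower in the mutant and 2 at least 2-fold higher, beside 3.22% lower and 3.49% higher among all probe sets. Cebpd, a transcription factor, read 1450.6 in the lactating mutant and 3632.9 in the lactating control. Dusp1, a phosphatase of MAP kinases, read 273.4 in the lactating mutant and 848.8 in the control. Per1, a clock gene, read 700.5 in the lactating mutant and 1693.5 in the control. The other 3 lower genes were Klf15, Zbtb16 and Klf9, at log2 ratios of -1.16, -1.07 and -1.01. In contrast, Ddit4, an inhibitor of mTORC1, read 1847.9 in the lactating mutant and 454.1 in the control, and Cdkn1a read 319.6 in the lactating mutant and 73.3 in the control. Fkbp5 and Tsc22d3, 2 further textbook targets, stood at 0.17 and -0.14. The median log2 ratio of the list was -0.49 for lactating, -0.11 for pregnant and -0.04 for virgin mice, beside 0.01, 0.02 and 0.05 for all probe sets. Centring each array on its median left 4 genes lower and 2 higher. Nr3c1, the glucocorticoid receptor gene, read 1960.5 in the lactating mutant and 3543.3 in the control. These lactating differences rest on 1 mouse of each genotype and have no replicate check. The list was chosen with earlier results of these data known. The part of glucocorticoids in the Sgk1 value was not tested.

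**Figure D3:**
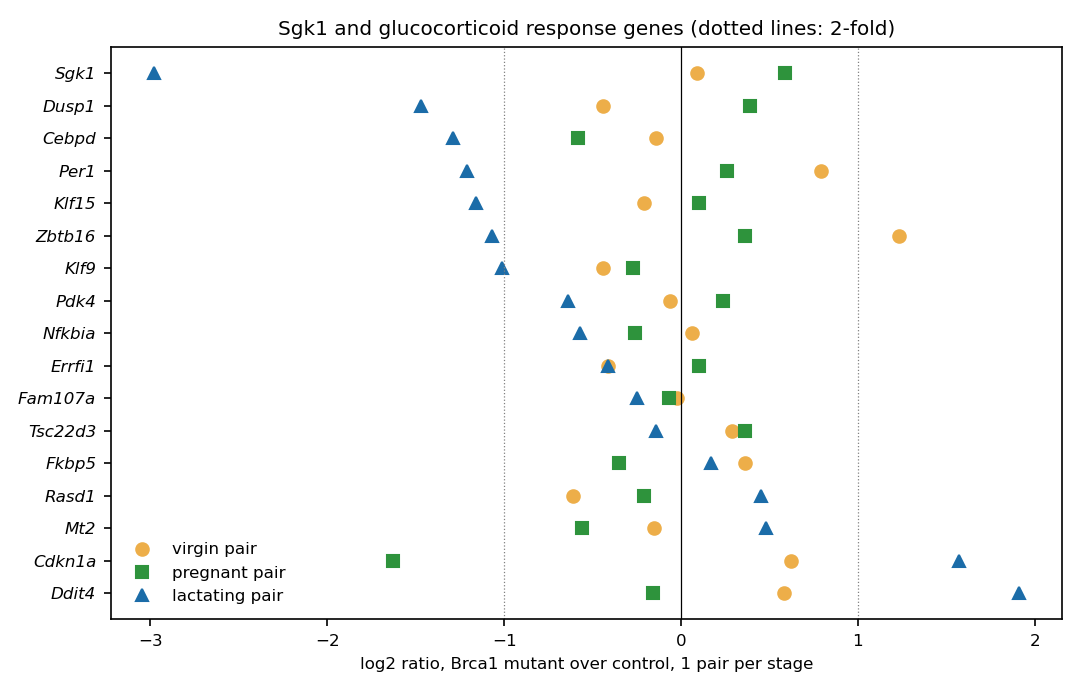
Log2 ratios of Brca1 mutant over control (horizontal axis) within the virgin, pregnant and lactating pairs, for Sgk1 and the 16 tested glucocorticoid response genes, ordered by the lactating pair. Sgk1 lies at -2.98 in the lactating pair and within 0.59 of 0 in the others, and Ddit4 and Cdkn1a lie on the opposite side in the lactating pair.

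The 5 genes most like Sgk1 over the 6 arrays were Tceal1 (r = 0.989), Mtmr12 (0.989), Tdp1 (0.984), Fam122b (0.980) and Slc19a1 (0.978). Each was lowest in the lactating mutant, as the choice by likeness fixes. Tdp1, which repairs trapped topoisomerase on DNA, read 78.6 in the lactating mutant and 310.1 in the lactating control. Among marker sums, the lactating mutant and its control read 6364 and 6787 for leukocytes, 48321 and 51972 for adipocytes, 281752 and 231090 for luminal cells and 18260 and 12390 for fibroblasts. The part of these differences in the Sgk1 value was not tested.

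The study's own comparison, Brca1 mutant against control, was tested over the 3 pairs with stage as a block. It pools the virgin and lactating pairs, which carry D11 alleles and p53+/-, with the conditional MMTV-Cre pair of the pregnant stage. None of the 14 probe sets of Akt1, Akt2, Pik3ca and Pik3r1 was called. Their log2 ratios lay between -0.26 and 0.33, with a median of -0.05 beside 0.03 for all probe sets, and the lowest adjusted p in limma was 0.976. Among all 19461 probe sets limma called 0 (0%), and 856 had an unadjusted p under 0.05. The ratio was 0.10 ± 0.17 (SE, n = 3 pairs) for Akt1 1416657_at, -0.14 ± 0.23 for Akt2 1421324_a_at, -0.05 ± 0.20 for Pik3ca 1453134_at and -0.04 ± 0.15 for Pik3r1 1438682_at. Standard errors of this size leave differences of modest size undetectable with 3 pairs.

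Over the 14 probe sets the log2 ratio of mutant over control ran from -0.80 to 1.34 in the virgin pair, from -0.53 to 0.35 in the pregnant pair and from -0.62 to 0.15 in the lactating pair. The only ratio of at least 2-fold was that of Akt1 1425711_a_at in the virgin pair, where the control signal was 24.1, beside 2.08% of all probe sets at least 2-fold higher and 1.03% lower in that pair and 1.13% and 0.868% in the pregnant pair. Pik3ca 1423144_at was the only 1 of the 14 with the same sign in all 3 pairs, beside 25.1% of all probe sets, with log2 ratios of -0.12 (virgin), -0.01 (pregnant) and -0.47 (lactating). The Pik3ca probe sets 1453134_at and 1460326_at also had their lowest ratios in the lactating pair, at -0.48 and -0.62, after 0.17 and 0.05 in the pregnant pair.

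**Figure D4:**
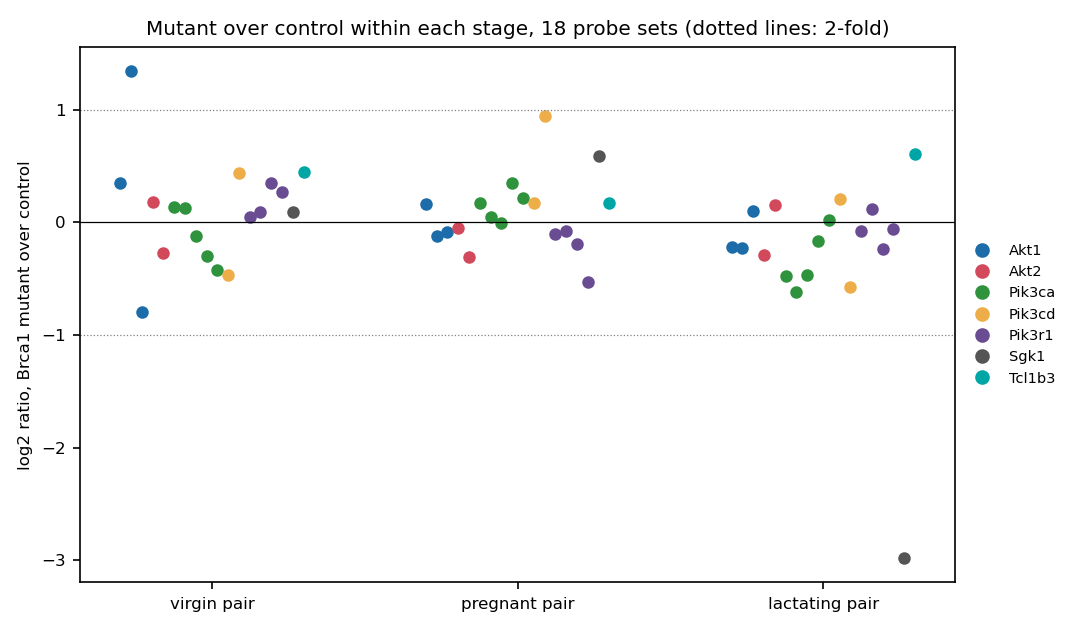
Log2 ratio of Brca1 mutant over control (vertical axis) in the virgin, pregnant and lactating pairs for the 18 probe sets that passed the low-signal filter, coloured by gene and in the same order in each pair. Dotted lines mark 2-fold: Sgk1 in the lactating pair (-2.98) and Akt1 1425711_a_at in the virgin pair (1.34) lie beyond them.

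Receptors and adaptors upstream of PI3 kinase were read on 1 probe set per gene, as were the lists that follow. The counts in these lists stand beside shares over all probe sets. These were 8.97% higher and 6.26% lower for pregnant against virgin glands, and 26.9% and 25.2% for lactating against virgin glands. After median centring, 2677 of all 19461 probe sets were called higher and 8777 lower in lactating against virgin glands, from 5243 and 4895. Centred counts in the lists stand beside these. Of 13 tested, 1 was called higher and 3 lower in pregnant against virgin glands, with a median log2 ratio of -0.36. Irs2, an insulin receptor substrate that recruits PI3 kinase, rose by 1.89 ± 0.43 (SE; limma adjusted p = 0.0246), and Igf1r, Grb10 and Insr fell, at -1.43, -1.03 and -0.95. In lactating against virgin glands, 1 was higher and 2 lower, with a median of -0.00, and after median centring 1 and 6. Irs2 was higher by 2.29, and the receptor-binding inhibitors Grb14 and Grb10 were lower, at -1.84 and -1.11.

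Among 9 other PI3 kinase subunits and adaptors, 1 was higher and 4 lower in lactating against virgin glands, with a median of -0.66, beside 26.9% and 25.2% of all probe sets, and 0 and 5 after median centring. The regulatory subunit Pik3r2 rose by 0.98 ± 0.22 (SE; limma adjusted p = 0.007). The B cell adaptor Pik3ap1 fell, at -2.63 ± 0.22 (limma adjusted p = 0.000144), as did the vesicle trafficking kinase Pik3c3, the leukocyte regulatory subunit Pik3r5 and the catalytic subunit Pik3cb, at -0.98, -0.98 and -0.78. Pik3ap1 and Pik3r5 were lower together with the leukocyte markers, whose part was not tested. Pregnant glands had 1 of these higher than virgin glands (Pik3r3, 0.91) and 2 lower (Pik3r5 and Pik3ap1, -1.51 and -1.02).

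Of 4 tested relatives of the kinases and coactivators, 2 were higher and 0 lower in lactating against virgin glands, beside 26.9% and 25.2% of all probe sets. The split was 1 higher and 1 lower after quantile normalization and 1 higher and 2 lower after median centring. Sgk2, a relative of Sgk1, read 716.8 and 996.8 in the lactating mutant and its control, and 82.9 and 110.9 in the virgin mutant and control (log2 ratio 2.60 ± 0.27, SE; limma adjusted p = 0.000303), and Tcl1b1 rose by 1.13. Sgk3 was lower in pregnant than in virgin glands, at -1.24. A list of 8 tested genes held kinases that activate Akt and partners or regulators of their complexes, such as Deptor. In pregnant against virgin glands 0 of these were called. In lactating against virgin glands 2 were higher (Mlst8 of the mTOR complexes, 1.20, and Prr5l, 0.93) and 2 lower (Tbk1, -1.37, and Mtor, -0.58), with a median of -0.33. These shares are near the 26.9% and 25.2% of all probe sets, and median centring gave 0 higher and 4 lower.

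Phosphatases and inhibitors of the pathway were called in both directions in lactating against virgin glands, 3 of 16 higher and 5 lower, with a median of -0.15. These shares are near the 26.9% and 25.2% of all probe sets, and median centring gave 3 higher and 9 lower. The lipid phosphatases Inpp5j and Inpp5k rose by 2.34 and 2.11, and Trib3, a pseudokinase that binds Akt, by 2.26. Phlpp2, a phosphatase that removes an activating phosphate from Akt, fell, at -2.14, and Pik3ip1, an inhibitor of the catalytic subunit, fell, at -1.45. Inpp5d fell as well, and Phlda3 and Themis2 fell, at -0.87 and -0.72. Against virgin glands, pregnant glands had 1 higher (Inpp5k, 1.10) and 2 lower (Phlpp2, -1.12, and Themis2, -1.04).

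Genes for Akt and Sgk substrates and the mTORC1 branch were 7 of 30 higher and 4 lower in lactating against virgin glands, with a median of 0.08, beside 26.9% and 25.2% of all probe sets. Akt1s1, a brake on mTORC1 that Akt releases, and Ndrg1, a substrate of Sgk1, both rose by 2.17. Gsk3a, Bad, Slc2a1, Nedd4l and Srebf1 rose by 1.35, 1.30, 1.29, 0.98 and 0.90. Slc2a1 encodes the glucose transporter of the secreting epithelium, and Srebf1 a regulator of lipid synthesis. Ndrg3, Foxo1, the insulin-regulated glucose transporter gene Slc2a4 and Tsc2 fell, at -2.55, -1.31, -0.97 and -0.74. Centring each array on its median changed these counts to 3 higher and 12 lower and the list's median to -0.51, while the median of all probe sets in that comparison was -0.574 after centring and 0.015 before it. Pregnant against virgin glands had 4 higher (Akt1s1, 1.48, Ndrg1, 1.23, Slc2a1, 1.19, and Bad, 0.84) and 2 lower (Foxo1, at -1.33, and Ndrg3).

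FOXO factors drive genes of arrest, catabolism and insulin sensitivity and are held out of the nucleus by Akt and Sgk kinases. Of 20 tested FOXO target genes, 4 were higher and 10 lower in lactating against virgin glands, with a median of -0.86. The shares of all probe sets were 26.9% and 25.2%. After median centring 4 were higher and 14 lower, beside 2677 and 8777 of all 19461 probe sets. Sesn1, Bcl6, Klf2 and Ccng2 fell, at -2.57, -2.33, -1.69 and -1.31, and Il7r, a lymphocyte receptor, fell together with the leukocyte markers, at -2.65. Gadd45a, Txnip, Cat, Pdk4 and Pik3ip1 fell, at -1.25, -1.19, -1.14, -1.08 and -1.45. Against this, Bcl2l11, Cited2 and Irs2 rose by 2.76, 2.49 and 2.29, and Trim63, a muscle ubiquitin ligase, by 2.19. In pregnant against virgin glands 4 were higher and 5 lower, beside 8.97% and 6.26%, and Trim63 rose by 3.59 together with the muscle markers. Irs2, Insr, Pik3ip1, Pdk4 and Eif4ebp1 also stand in other lists. The parts of leukocytes and muscle were not tested.

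Sodium transport genes regulated by Sgk1, with the steroid receptors, were 3 of 10 higher and 2 lower in lactating against virgin glands. These shares are near the 26.9% and 25.2% of all probe sets, and median centring gave 2 higher and 3 lower. Scnn1b and Scnn1a, subunits of the epithelial sodium channel, rose by 1.74 and 1.57, and Nedd4l, the ubiquitin ligase that removes that channel, by 0.98. Atp1b1, a subunit of the sodium pump, fell, at -2.06, and the kinase gene Wnk1 fell, at -0.74. None of the 10 was called in pregnant against virgin glands. In the lactating pair 0 of these 10 differed by at least 2-fold between mutant and control. That is near the 3.49% of all probe sets higher and 3.22% lower. Whether these genes follow Sgk1 was not tested. Between stages, glucocorticoid response genes were 1 higher and 7 lower of 16 in lactating against virgin glands, with Mt2 higher by 2.17 and Errfi1, Rasd1, Dusp1, Tsc22d3, Fam107a, Pdk4 and Klf9 lower, at -1.98 to -0.96. The shares over all probe sets were 26.9% and 25.2%, and median centring gave 1 higher and 12 lower. For Brca1 mutant against control limma called 0 genes in each of these lists.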

How the data were processed

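Signal intensities of 45101 probe sets were deposited by the authors for 6 arrays, made with MAS5 of a version not given here, per the submitters' processing notes. In the deposited values each array had a 2%-trimmed mean of 500.0. Probe sets numbered 64 array controls, 34945 with 1 gene symbol, 932 with several and 9160 unnamed here. Only those with 1 symbol were used. Signals were turned into log2(signal + 52.1), with the 25th percentile of all values as pseudocount, and probe sets with a mean under the median of 7.718 were left out, which kept 19461 probe sets of 11569 genes.

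Stage and genotype were fitted together to all 6 arrays with limma 3.58.1 in R 4.3.3 (variance trend in eBayes). The fit had 2 residual and 5.923 prior degrees of freedom. P-values were adjusted by Benjamini-Hochberg over all probe sets and called at 0.05. Stage is the pairing in the labels. Deviations from each genotype's mean over the stages correlated within pairs at 0.854, 0.609 and 0.827 for the virgin, pregnant and lactating pairs. These deviations hold the stage differences themselves, so the correlations cannot show a pairing beyond stage. Ratios within a pair carry no test. Nothing in the labels states how the mice of a stage were sampled beyond 1 mouse per array. With 1 array per stage and genotype, the residual spread is how far the mutant to control ratio varied between stages. eBayes moderated this spread over all probe sets. P-values and standard errors thus do not measure the spread between mice of the same stage and genotype, and the number of arrays limits the precision.

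The members, the gene lists and the marker lists were chosen with earlier results of these data known. Every member probe set is named, of each list the called genes, and the genes with the highest Pearson r to a member's brightest probe set. Probe sets with _x_ or _s_ in the name represent a gene only where it has no other. The alternatives were quantile normalization, median centring, pseudocounts of 14.9 and 168.7, no filter or a filter at 9.151, 1 probe set per gene, no variance trend, no block or genotype term, and leaving out arrays and pairs. Promoter and gene positions are from RefSeq, GRCm38.p6, and the code was tested on simulated data. Figures were drawn with matplotlib 3.10.9.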

Additional observations from a re-analysis of the deposited data

How the results depend on the processing

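For the 4 tested genes, 767 values under an alternative kept their direction and their side of the threshold, 39 lost a call, 14 gained one and 52, all of them uncalled ratios, changed sign. Of the 14 probe sets, pregnant against virgin glands gave 5 calls, 3 after quantile normalization, 3 after median centring and 1 to 6 when arrays were left out. Lactating against virgin glands gave 7 calls, and 11 after median centring. Lactating against pregnant glands gave 5 calls, and 1 to 5 when arrays were left out. Over all probe sets, pregnant against virgin glands gave 2965 calls, and 375 without the pregnant control to 4639 without the lactating pair; lactating against virgin glands gave 10138, and 6303 without the virgin control; lactating against pregnant glands gave 6214, and 1528 without the pregnant mutant. Median centring turned the split of lactating against virgin calls into 2677 higher and 8777 lower, from 5243 and 4895. It gave 1301 higher and 1842 lower for pregnant against virgin glands, where the deposited scaling gave 1746 and 1219, and 1419 higher and 6474 lower for lactating against pregnant glands, where it gave 2949 and 3265. The fit without the stage block, the pairing in the labels, called 0 of the 14 for mutant against control, as did the fit with it. Within pairs, 1 of 18 probe sets differed by at least 2-fold in the virgin pair, 2 with the pseudocount of 14.9 and 0 with 168.7, and in the pregnant pair 0 did, and 1 with 14.9.

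Among uncalled ratios, median centring reversed lactating against virgin Pik3r1 1438682_at (-0.24) and lactating against pregnant Akt2 1424480_s_at (-0.26), Pik3ca 1429434_at (-0.37) and Pik3ca 1429435_x_at (-0.16), and quantile normalization reversed Pik3ca 1429434_at (-0.05). When arrays or pairs were left out, mutant against control ratios ranged for Akt1 over -0.03 to 0.25 (1416657_at), -0.17 to 0.61 (1425711_a_at) and -0.45 to 0.00 (1440950_at), for Akt2 1424480_s_at over -0.17 to 0.07, for Pik3ca over -0.17 to 0.16 (1453134_at), -0.28 to 0.09 (1460326_at), -0.24 to 0.09 (1429434_at) and -0.20 to 0.12 (1429435_x_at), and for Pik3r1 over -0.22 to 0.08 (1425515_at) and -0.30 to 0.10 (1451737_at). Pregnant against virgin ratios ranged for Pik3ca over -0.29 to 0.12 (1460326_at) and -0.52 to 0.06 (1429434_at). Lactating against virgin ratios ranged for Pik3ca over -0.38 to 0.01 (1429434_at) and -0.35 to 0.19 (1429435_x_at) and for Pik3r1 1425515_at over -0.52 to 0.05. Lactating against pregnant ratios ranged for Akt1 1425711_a_at over -0.71 to 0.13, for Akt2 1424480_s_at over -0.02 to 0.34 and for Pik3ca 1429434_at over -0.25 to 0.34. Where only 1 array of a stage was left, it was assumed to vary like the others. The cause of these changes was not tested.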

Other observations

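Immediate early and stress genes, which respond within minutes to growth factors, cytokines and handling, were read beside Sgk1 because Sgk1 is itself induced quickly. Of 19 tested, 8 were at least 2-fold lower in the lactating mutant than in the lactating control and 1 was at least 2-fold higher, beside 3.22% and 3.49% of all probe sets, and the list's median log2 ratio was -0.66. Ccn2, a matrix-associated growth factor, read 337.1 in the lactating mutant and 3619.9 in the lactating control. Socs3, an inhibitor of cytokine receptor signalling, read 173.2 in the lactating mutant and 1916.3 in the control. Ier3, Myc, Klf6, Jun, Atf3 and Ccn1 stood at log2 ratios of -1.69 to -1.08, and Egr3 at 1.44. In the other 2 pairs the median was -0.23 (pregnant) and 0.02 (virgin), with 0 and 1 of the 19 at least 2-fold lower. In the fit over all 3 pairs limma called 0 of the 19. With 1 mouse of each genotype, the lactating difference has no replicate check. Its relation to the Sgk1 value was not tested.

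Between stages the same 19 genes were called in both directions. In lactating against virgin glands 5 were higher and 4 lower, led by Jund (3.24) and Egr3 (-3.04), near the 26.9% and 25.2% of all probe sets, and 2 and 6 after median centring. Against pregnant glands, lactating glands had 5 higher and 1 lower, beside 15.2% and 16.8%. In pregnant against virgin glands 2 were higher (Ier3 and Jund) and 2 lower (Egr3 and Egr1), beside 8.97% and 6.26%.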
